A study of Homo sapiens with 12 samples.

Results

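The mitosis and G2/M genes are 41 human genes whose products switch the cell into mitosis, build the spindle, attach and separate the chromosomes and divide the cell. They were chosen by gene symbol, and all 41 had a row among the 12931 rows measured in every library. RNA was sequenced from 12 libraries of WM1366, a human NRAS-mutant melanoma line, in 3 groups of 4 libraries. R1 and R2 received feed that combined a MEK inhibitor with a CDK4/6 inhibitor, and the control group received feed without them. The study's title concerns resistance acquired to such combinations, and its design text describes RNA of WM1366 xenografts that were progressing. All 3 groups share this cell line and differ only in diet by their labels, which do not say what sets R1 apart from R2, nor whether the 4 libraries of a group come from separate tumours. The p-values below therefore measure the spread between these libraries, which may be technical. The labels also give every library, control included, culture in Tu2% medium and treatment with 0.1 uM palbociclib, a CDK4/6 inhibitor, and 1 nM PD0325901, a MEK inhibitor, and the sources used here do not say how this relates to the diets.

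Cells make the products of these genes late in the cell cycle, from late S phase to mitosis, and destroy many of them as mitosis ends. Their promoters are held down in resting cells by the DREAM complex and are switched on by B-MYB with the MuvB core and then by FOXM1, and many carry CCAAT boxes, bound by NF-Y, and a cell cycle homology region (CHR), bound by MuvB. MEK signalling and CDK4/6 act upstream, at the passage through G1, where CDK4/6 with cyclin D phosphorylates RB. In tumours such as melanoma the summed expression of these genes is widely read as a sign of how many cells are dividing. In these bulk libraries, fewer cells in G2 or mitosis and less of these RNAs per cell cannot be told apart.

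The deposited values are normalised signals from which whole reads could be recovered, and depth ranged from 20003891 to 39009384 reads per library. They are not divided by gene length, so levels are compared between libraries and not between genes. R1 replicate 2, with 21456002 reads, stood apart from the other R1 libraries in the mitotic genes, and results are therefore given with and without it. Genes of the mitochondrial genome took 2.17% to 3.28% of reads in R1, 4.02% to 9.63% in R2 and 5.86% to 10.9% in control libraries. Ribosomal protein genes took 9.65% to 11.8% in R1, 5.63% to 6.84% in R2 and 5.67% to 6.39% in control libraries, and the part of either in the results below was not tested. In R1 replicate 2 these shares were 2.17% and 10.8%, within the range of R1 or at its edge. Of 11 melanocyte markers, 4 had a row (MITF, PMEL, PAX3 and EDNRB), and SOX10, MLANA, TYR, TYRP1 and DCT had none. The summed level of these 4 was 62.8 to 91.5 in R1, 53.5 to 58.6 in R2 and 66.5 to 80.2 in control libraries. This sum joins genes that moved in opposite directions. MITF averaged 23.49 in R1, 30.45 in R2 and 50.35 in control libraries, and PMEL averaged 27.09, 8.81 and 5.32. Of 9 fibroblast and pericyte markers, 4 were measured, with a summed level of 84.7 to 154 in R1, 100.1 to 331 in R2 and 232 to 327 in control libraries. COL1A1 made up most of this sum, at means of 104.8 in R1, 216 in R2 and 271.2 in control libraries. PDGFRB averaged 5.05, 0.331 and 4.03. Of 8 endothelial markers, 4 were measured, with 375 to 499 in R1, 126 to 157 in R2 and 133 to 172 in control libraries. TIE1 made up most of this sum, at means of 393.6, 135.3 and 138.6. PECAM1, VWF and EGFL7 averaged 2.55, 4.49 and 16.17 in R1 and 2.26, 1.76 and 3.61 in control libraries. Sums led by 1 gene are not read as amounts of a cell type. Of 10 leukocyte markers, only CSF1R had a row, at 1.39 to 6.19 in R1, 0.349 to 0.689 in R2 and 1.12 to 3.18 in control libraries. Of 5 keratinocyte markers, only KRT10 had a row, at 23.0 to 34.7 in R1, 13.8 to 21.8 in R2 and 16.0 to 18.5 in control libraries, and none of 5 red blood cell markers had one. R1 replicate 2 was the highest R1 library for the melanocyte (91.5), endothelial (499) and CSF1R (6.19) levels, stood at 146 for the fibroblast and pericyte markers and at 27.3 for KRT10, and had the lowest R1 values of the mitotic genes. The part of these marker levels in the results was not tested.

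The promoters below show letters that many of these genes share. For 34 of the 41 genes a promoter was at hand in RefSeq (build GRCh38.p14), as the 250 bases before the annotated start and the 50 after it. WEE1, AURKA, TTK, FOXM1, TPX2, UBE2C and BIRC5 had no entry. The letters CCAAT, on either strand, stood in 24 of the 34 promoters (70.6%), against 3469 of 9317 promoters of the genes measured (37.2%) and 35.7% of the 27305 promoters of the whole table. A CHR, searched as TTTGAA or TTCGAA on either strand, stood in 23 of 34 (67.6%), against 10.97% of the genes measured and 16.6% of the whole table. Both motifs, each counted whether or not their matches overlapped, stood in 18 of 34 (52.9%), against 4.77% of the genes measured. CCAAT stood at 2 or more places in 15 of 34 (44.1%), against 13.96%. A match of letters describes the window and is not a binding site. PLK1 and KIF18A are printed as the CHR-bearing members with the smallest adjusted p for R1 against control, and PRC1 and HMMR as those for R2 against control. Each line gives the 250 bases before the start, read 5′ to 3′ on the gene's own strand, with capitals marking CCAAT, its reverse ATTGG and the CHR.
PLK1, chr16:23678639-23678888, plus strand: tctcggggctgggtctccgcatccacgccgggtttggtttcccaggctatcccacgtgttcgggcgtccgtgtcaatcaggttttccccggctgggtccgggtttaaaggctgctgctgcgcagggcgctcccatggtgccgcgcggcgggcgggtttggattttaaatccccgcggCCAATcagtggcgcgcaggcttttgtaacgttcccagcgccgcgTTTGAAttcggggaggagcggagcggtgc
KIF18A, chr11:28108157-28108406, minus strand: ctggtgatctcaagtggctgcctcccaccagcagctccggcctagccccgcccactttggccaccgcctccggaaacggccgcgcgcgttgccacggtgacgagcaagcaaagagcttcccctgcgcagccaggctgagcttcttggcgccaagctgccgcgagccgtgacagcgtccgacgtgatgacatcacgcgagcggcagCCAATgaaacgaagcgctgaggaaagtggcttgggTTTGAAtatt
PRC1, chr15:90994536-90994785, minus strand: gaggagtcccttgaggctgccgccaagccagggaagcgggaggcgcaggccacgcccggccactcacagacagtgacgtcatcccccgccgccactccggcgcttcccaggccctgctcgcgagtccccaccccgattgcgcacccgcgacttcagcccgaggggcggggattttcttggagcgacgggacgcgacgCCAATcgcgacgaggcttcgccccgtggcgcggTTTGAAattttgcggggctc
HMMR, chr5:163460382-163460631, plus strand: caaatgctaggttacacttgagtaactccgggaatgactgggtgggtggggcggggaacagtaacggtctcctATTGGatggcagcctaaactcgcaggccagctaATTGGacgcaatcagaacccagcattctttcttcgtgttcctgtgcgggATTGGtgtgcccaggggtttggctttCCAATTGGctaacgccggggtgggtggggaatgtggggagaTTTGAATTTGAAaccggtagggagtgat
The CHR began 29 bases before the start in PLK1, 10 in KIF18A and 20 in PRC1, each downstream of a CCAAT at 73, 45 and 53 bases. HMMR held a pair of abutting CHR copies at 28 and 22 bases before its start and CCAAT at 5 places, 4 of them on the opposite strand and a pair of them overlapping.

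The 41 genes did not move as a block in either combination group. Of the 41, 10 fell and 0 rose in R1 against control, against 21.4% fallen and 22.4% risen of all 12931 rows (limma, adjusted p under 0.05). The 10 that fell were ANLN, AURKB, CCNA2, CDC25B, FOXM1, KIF18A, NUSAP1, PLK1, TACC3 and WEE1. Without R1 replicate 2 the same 10 fell, with 22.1% of all rows, and 10 others rose, with 23.4% of all rows. Those that then rose were AURKA, BIRC5, CCNB1, CDK1, DLGAP5, HMMR, KIF2C, NDC80, NUF2 and TOP2A. Replicate 2 had the lowest R1 value of every member, so leaving it out could only raise R1 fold changes, against control or R2. The median log2 fold change of the 41 was -0.21 with all libraries and 0.06 without R1 replicate 2, against 0.01 over all rows in both fits. No member was called risen in R1 with all 12 libraries by limma, edgeR or DESeq2, and 0 were higher at an unadjusted limma p under 0.05. The share that fell was near that of all rows, so this count by itself is not a result about these genes.

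**Figure D1:**
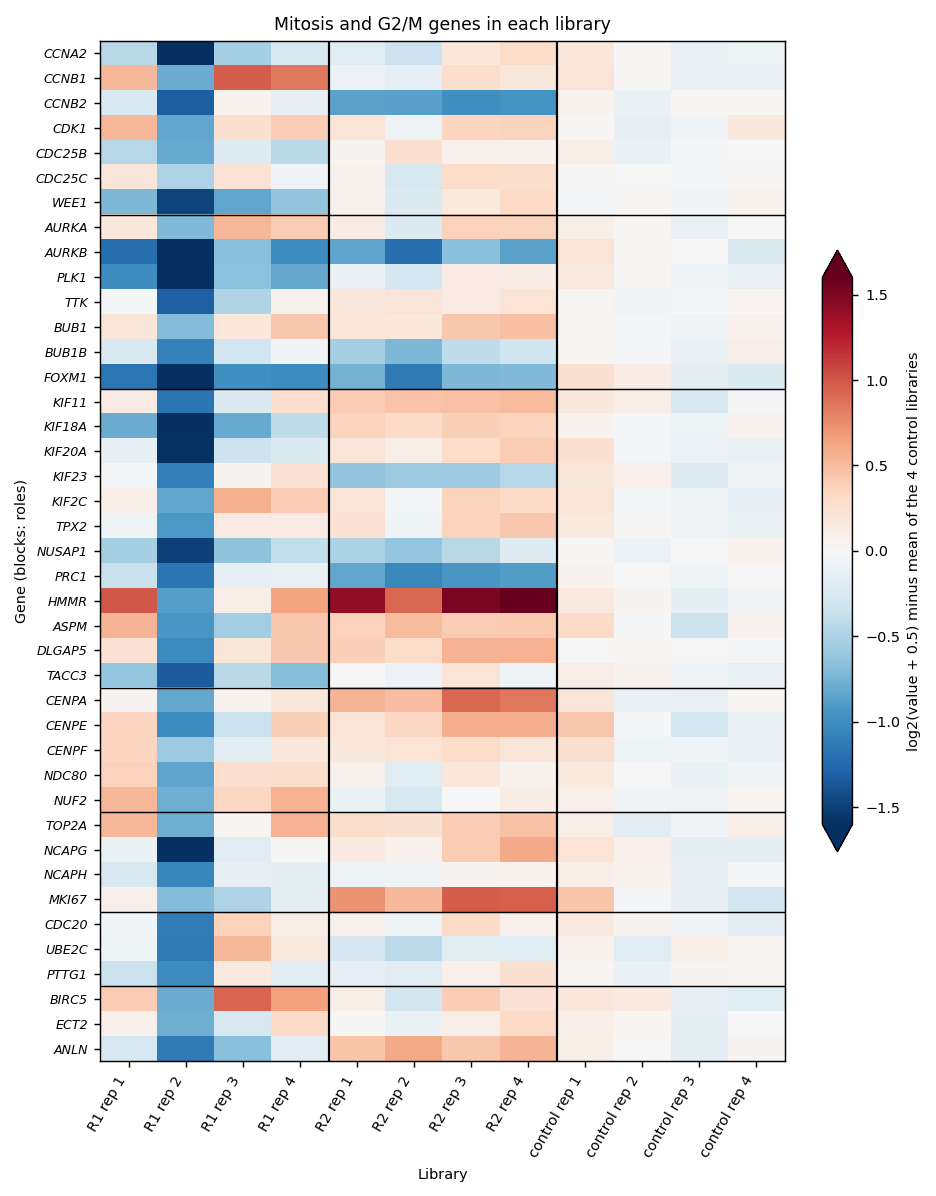
Colour gives log2(value + 0.5) minus the mean of the 4 control libraries for each of the 41 genes (rows, in blocks by role) in each library (columns, R1, R2 and control). The column of R1 replicate 2 is blue throughout, as the lowest of R1 in 41 of 41 genes, and in R2 HMMR is the most strongly red row.

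In R2 against control, 4 of the 41 rose and 5 fell, against 13.6% risen and 14.8% fallen of all rows. ANLN, CENPA, HMMR and MKI67 rose, and AURKB, BUB1B, CCNB2, FOXM1 and PRC1 fell. Leaving R1 replicate 2 out of the fit changes no R2 or control value and only narrows the shared estimate of the spread. In that fit 9 rose and 7 fell, against 16.1% and 16.6% of all rows, with BUB1, DLGAP5, KIF11, KIF18A and TOP2A added to the risen and KIF23 and NUSAP1 to the fallen. The median log2 fold change of the 41 was 0.11, against 0.03 over all rows. In R1 against R2, 1 of the 41 rose (PRC1) and 14 fell, against 24.0% and 22.8% of all rows. The 14 were ANLN, CCNA2, CDC25B, CENPA, HMMR, KIF11, KIF18A, KIF20A, MKI67, NCAPG, PLK1, TACC3, TTK and WEE1. Without R1 replicate 2 the same 14 fell, with 23.5% of all rows, and 8 rose, with 24.2% of all rows. BIRC5, BUB1B, CCNB1, CCNB2, KIF23, NUF2 and UBE2C joined PRC1 among the risen. The median was -0.39 with all libraries and -0.12 without R1 replicate 2, against 0.00095 and 0.0050 over all rows. The 3 comparisons share libraries, so their counts are not independent of each other.

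R1 replicate 2 had the lowest of the 4 R1 values in 41 of 41 genes, against 32.05% of all rows. Its value relative to the mean of the other R1 libraries was 0.328 to 0.728, with a median of 0.445. Over all rows the median of this ratio was 0.998, and 0.999% of rows lay at or below the median of the mitotic genes. NCAPG, a condensin subunit, had the lowest ratio and CDC25B, a phosphatase that activates CDK1, the highest. The median coefficient of variation of the 41 genes was 34.7% in R1, 10.8% in R1 without replicate 2, 11.5% in R2 and 8.60% in control libraries. The other groups also had an order among libraries, though a narrower one. R2 replicate 2 was lowest in 31 of the 41 genes, R2 replicate 4 was highest in 21 and control replicate 1 was highest in 31. Over all rows the same libraries were so placed in 35.63%, 29.33% and 28.81%. In the median over the 41 genes of log2 level minus the control mean, R1 libraries 1 to 4 stood at -0.03, -1.02, -0.13 and 0.11. The R2 libraries stood at 0.07, -0.08, 0.29 and 0.28, and the control libraries at 0.11, 0.00, -0.07 and -0.02. Without R1 replicate 2 the R1 libraries thus lay within the range of the R2 and control libraries or just below it.

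**Figure D2:**
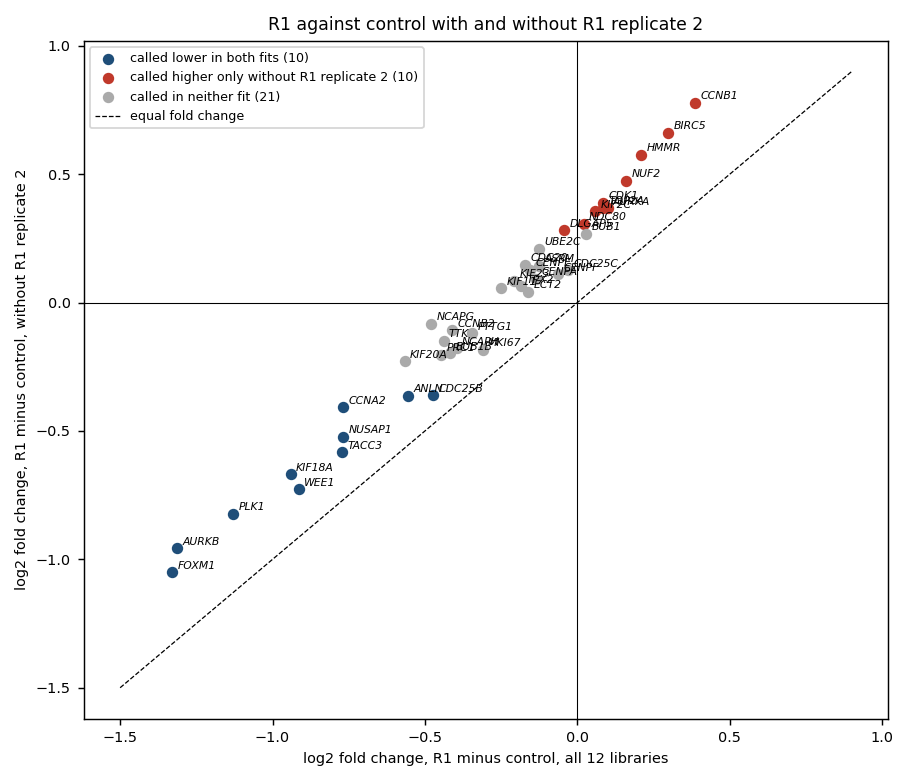
Each point is a member, with its log2 fold change for R1 against control from all 12 libraries (x) and without R1 replicate 2 (y), coloured by whether it passed an adjusted p of 0.05 in each fit. Every point must lie above the dashed line of equal fold change, since R1 replicate 2 has the lowest R1 value of every member. The same 10 genes are called lower in both fits.

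In what follows the 4 values of a group are listed in the order of replicates 1 to 4, so that the second R1 value is that of R1 replicate 2. Log2 fold changes are differences of mean log2(value + 0.5), R1 or R2 minus control and R1 minus R2.

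Cyclins A2, B1 and B2 bind CDK1 to form the kinase that triggers mitosis, WEE1 restrains it by phosphorylation, and the CDC25 phosphatases release it. WEE1 had values of 14.8, 8.51, 13.6 and 15.7 in R1 libraries, 25.8, 21.1, 27.4 and 30.8 in R2 libraries, and 23.96, 25.00, 23.9 and 25.6 in control libraries. All 4 R1 libraries lay below every R2 and control library, and R2 overlapped control. WEE1 fell in R1, with a log2 fold change of -0.91 (SE 0.17, limma adjusted p = 0.000629) against control and -0.99 (SE 0.17, limma adjusted p = 0.000307) against R2. Without R1 replicate 2 the change against control was -0.73 (SE 0.13, limma adjusted p = 0.000435) and that against R2 was -0.81 (limma adjusted p = 0.000192). The opposing phosphatase CDC25B had values of 42.3, 32.95, 50.3 and 43.1 in R1 libraries, 60.01, 70.2, 61.2 and 60.6 in R2 libraries, and 62.8, 54.1, 57.4 and 58.4 in control libraries. Its R1 libraries were again all below R2 and control. CDC25B fell by 0.47 on the log2 scale (SE 0.12, limma adjusted p = 0.00542) against control and by 0.59 on the log2 scale (SE 0.12, limma adjusted p = 0.00120) against R2. Without R1 replicate 2 its log2 fold changes were -0.36 and -0.47. The restraining kinase and this phosphatase thus fell together in R1, and neither passed the test in R2 against control. CDC25C, which acts on the same residues of CDK1, averaged 10.8 ± 2.41 in R1, 11.7 ± 2.05 in R2 and 10.8 ± 0.1797 in control libraries (SD, n = 4 each) and passed in neither limma fit.

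CCNB1, cyclin B1, had values of 256, 102, 345 and 316 in R1 libraries, 166, 162, 214 and 201 in R2 libraries, and 205, 179.5, 162 and 163 in control libraries. R1 libraries 1, 3 and 4 lay above every R2 and control library, and replicate 2 lay below them all. Its log2 fold change in R1 was 0.39 (SE 0.28, limma adjusted p = 0.287) with all libraries and 0.78 (SE 0.13, limma adjusted p = 0.000413) without R1 replicate 2. CCNB2, cyclin B2, had values of 60.8, 28.5, 74.9 and 65.4 in R1 libraries, 39.5, 39.2, 36.4 and 36.7 in R2 libraries, and 74.7, 67.1, 73.3 and 73.1 in control libraries. All 4 R2 libraries were below every control library, and R1 libraries other than replicate 2 were near control. CCNB2 fell in R2, with -0.92 (SE 0.22, limma adjusted p = 0.00586), and R1 against R2 gave 0.50 (SE 0.22, limma adjusted p = 0.0701) with all libraries and 0.81 (SE 0.10, limma adjusted p = 2.12e-05) without R1 replicate 2. On the recovered reads of all libraries edgeR and DESeq2 called CCNB2 higher in R1 than in R2 (adjusted p = 0.0287 and 0.0140). In R1 against control CCNB2 was at -0.41 (SE 0.22, limma adjusted p = 0.140) and passed without R1 replicate 3 (limma adjusted p = 0.0497). CDK1 itself had values of 141, 54.9, 117 and 128 in R1 libraries, 114, 92.5, 124 and 126 in R2 libraries, and 99.2, 89.4, 94.4 and 109.9 in control libraries. R1 libraries 1, 3 and 4 were above all control libraries and within or above R2. CDK1 did not pass in limma with all libraries, at 0.08 (SE 0.23, limma adjusted p = 0.783) for R1 against control, and rose in R1 without replicate 2, at 0.39 (SE 0.12, limma adjusted p = 0.0180). CCNA2, cyclin A2, averaged 80.8 ± 31.6 in R1, 128 ± 25.9 in R2 and 128 ± 11.5 in control libraries (SD, n = 4 each) and fell in R1 by 0.77 on the log2 scale (SE 0.27, limma adjusted p = 0.0316) against control and by 0.75 on the log2 scale (SE 0.27, limma adjusted p = 0.0334) against R2. Without R1 replicate 2 its log2 fold changes were smaller, at -0.41 and -0.39. The call against control was lost without control replicate 1, 2 or 4 (limma adjusted p = 0.0739, 0.0622 and 0.0531), and that against R2 without R2 replicate 3 or 4 (0.0784 and 0.0931) and in a fit of R1 and R2 alone (0.0700). CCNA2 shares exon positions with EXOSC9, and the sources used here do not say whether strand was used in counting.

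FOXM1, the transcription factor that switches on many genes of this list, had values of 219, 109, 246 and 242 in R1 libraries, 289, 223, 295 and 299 in R2 libraries, and 579, 532, 441 and 418 in control libraries. All R1 and all R2 libraries lay below every control library. FOXM1 fell in both, with -1.33 (SE 0.22, limma adjusted p = 0.000255) in R1 and -0.83 (SE 0.22, limma adjusted p = 0.0115) in R2. Without R1 replicate 2 the R1 change was -1.05. R1 against R2 did not pass the test, at -0.50 (SE 0.22, limma adjusted p = 0.0764), and passed it without R1 replicate 3 (limma adjusted p = 0.0490). FOXM1 shares exon positions with ITFG2. AURKB, the kinase of the chromosomal passenger complex, had values of 48.8, 21.3, 71.1 and 56.9 in R1 libraries, 63.1, 48.7, 71.5 and 62.2 in R2 libraries, and 132, 116, 113 and 96.4 in control libraries. R1 and R2 overlapped each other and both lay below all control libraries. AURKB fell with -1.31 (SE 0.27, limma adjusted p = 0.00140) in R1 and -0.90 (SE 0.27, limma adjusted p = 0.0238) in R2. Without R1 replicate 2 the R1 change was -0.96. The R2 call was lost without R2 replicate 2 or control replicate 1, 2 or 3 (limma adjusted p = 0.0614, 0.0603, 0.0508 and 0.0511). The R1 and R2 comparisons of these genes share the 4 control libraries.

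PLK1, a kinase needed for mitotic entry, centrosome maturation and cytokinesis, had values of 123, 59.1, 155 and 138 in R1 libraries, 226, 201, 269 and 266 in R2 libraries, and 274, 248, 236 and 225 in control libraries. The R1 libraries were all below R2 and control, which overlapped. PLK1 fell in R1, with -1.13 (SE 0.23, limma adjusted p = 0.00124) against control and -1.09 (SE 0.23, limma adjusted p = 0.00145) against R2, and was at -0.04 (SE 0.23, limma adjusted p = 0.923) for R2 against control. AURKA, the kinase of centrosomes and spindle poles, had values of 108, 58.8, 139 and 127 in R1 libraries, 104, 82.4, 124 and 123 in R2 libraries, and 102, 97.6, 89.4 and 95.3 in control libraries. R1 libraries 1, 3 and 4 lay above control, and R2 straddled it. AURKA was at 0.10 (SE 0.22, limma adjusted p = 0.730) in R1 with all libraries and rose without R1 replicate 2, at 0.37 (SE 0.14, limma adjusted p = 0.0432). PLK1 thus fell in R1 with and without replicate 2, at -0.82 (SE 0.12, limma adjusted p = 0.000135) against control without it. Against R2 PLK1 was then at -0.79 (limma adjusted p = 0.000188).

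BUB1, BUB1B and TTK are kinases or pseudokinases of the spindle checkpoint, which holds anaphase until all chromosomes are attached. BUB1B, which encodes BUBR1, had values of 73.3, 40.8, 70.01 and 84.2 in R1 libraries, 60.2, 52.7, 65.3 and 69.3 in R2 libraries, and 88.7, 86.02, 80.4 and 92.4 in control libraries. R2 libraries were all below control, and R1 overlapped both. BUB1B fell in R2, with -0.49 (SE 0.18, limma adjusted p = 0.0499), but this call held without R1 replicate 2 or R1 replicate 4 and was lost without any 1 of the other 10 libraries (limma adjusted p = 0.0553 to 0.119). It was also lost with an added 0.1 in place of 0.5, over rows with a mean of at least 5, and with scaling that left out mitochondrial and ribosomal protein genes (limma adjusted p = 0.0507, 0.0522 and 0.0571). In R1 against control it passed, among the libraries left out, without R1 replicate 4 (limma adjusted p = 0.0263). TTK averaged 39.8 ± 14.9 in R1, 57.7 ± 1.51 in R2 and 50.8 ± 1.196 in control libraries (SD, n = 4 each). It fell in R1 against R2 by 0.62 on the log2 scale (SE 0.22, limma adjusted p = 0.0300), and leaving out R1 replicate 3 took the call away (limma adjusted p = 0.0612), as did R2 replicate 1, 2 or 4 (0.0556, 0.0536 and 0.0607), edgeR (0.0506) and a fit of R1 and R2 alone (0.0675). Without R1 replicate 2 the difference from R2 was -0.33. Without R1 replicate 4 TTK also fell against control (limma adjusted p = 0.0368). BUB1 averaged 124 ± 36.4 in R1, 146 ± 16.6 in R2 and 117 ± 4.596 in control libraries (SD, n = 4 each), and did not pass with all 12 libraries in limma. In R2 against control it passed without R1 replicate 2, at 0.31 (SE 0.10, limma adjusted p = 0.0264), and in a fit of the R2 and control libraries alone (limma adjusted p = 0.0231).

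**Figure D3:**
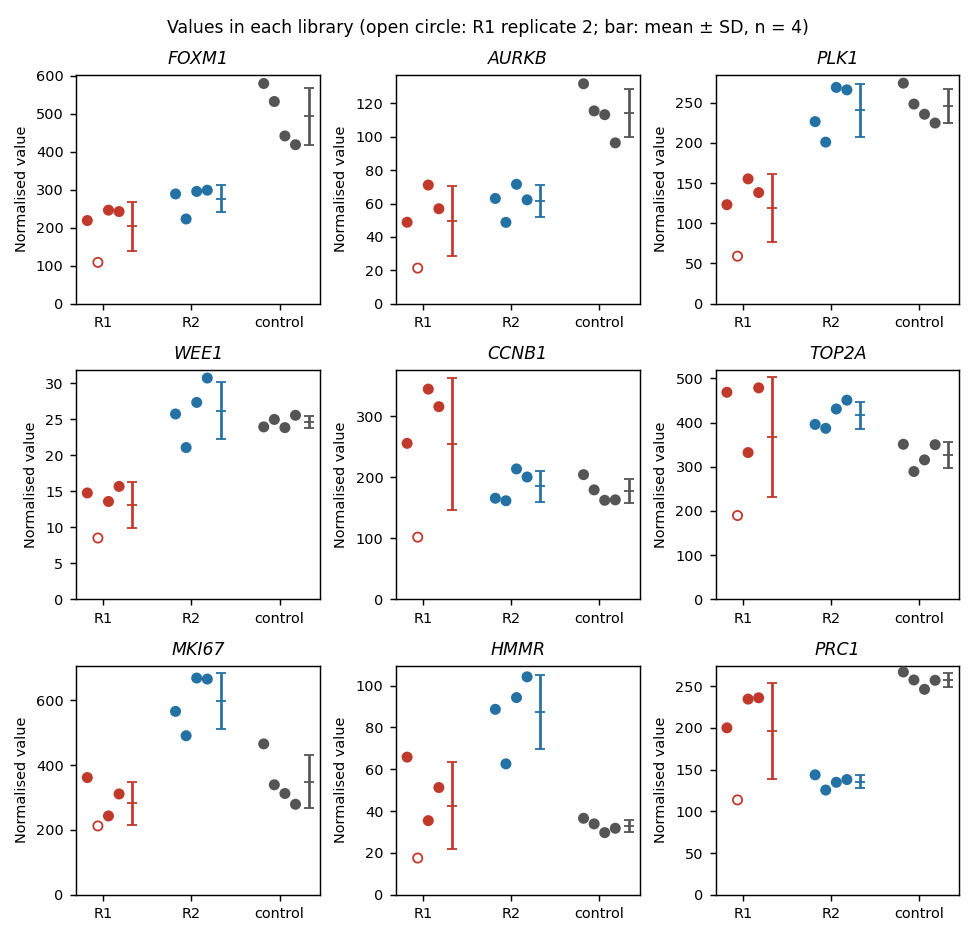
Points give the normalised value of 9 members in each library of R1, R2 and control (open circle: R1 replicate 2), with bars for the mean ± SD of 4 libraries. FOXM1, AURKB and PRC1 are lower than control in every library of R1 and R2, though PRC1 in R1 did not pass the test with all libraries. PLK1 and WEE1 are lower than control in R1, and MKI67 and HMMR have their highest means in R2.

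Of the 12 spindle motors and microtubule proteins, 3 fell in R1 (KIF18A, NUSAP1 and TACC3), against 21.4% of all rows, and in R2 HMMR rose and PRC1 fell, against 13.6% and 14.8% of all rows. HMMR, a microtubule-binding protein of the spindle that also serves as a receptor for hyaluronan, had values of 65.8, 17.6, 35.4 and 51.3 in R1 libraries, 88.6, 62.6, 94.2 and 104 in R2 libraries, and 36.5, 33.9, 29.7 and 31.8 in control libraries. All R2 libraries lay above control, and R1 spread from below control to the level of R2. HMMR rose in R2 with 1.37 (SE 0.30, limma adjusted p = 0.00330), a ratio of means of 2.65, and was lower in R1 than in R2, with -1.16 (SE 0.30, limma adjusted p = 0.00555). In R1 against control it was at 0.21 (SE 0.30, limma adjusted p = 0.589) with all libraries and at 0.58 (SE 0.20, limma adjusted p = 0.0278) without replicate 2. In R1 against R2 HMMR was then at -0.80. PRC1, which bundles the microtubules of the midzone for cytokinesis, had values of 200.1, 114, 235 and 236 in R1 libraries, 144, 126, 135 and 138 in R2 libraries, and 267, 257, 246 and 257 in control libraries. All R2 libraries were below control and below R1 libraries 1, 3 and 4, and the R1 libraries were also all below control. PRC1 fell in R2, with -0.92 (SE 0.18, limma adjusted p = 0.00156), and was higher in R1 than in R2, with 0.48 (SE 0.18, limma adjusted p = 0.0422). That last call was lost without any 1 of the 11 libraries other than R1 replicate 2 (limma adjusted p = 0.0513 to 0.128), and without R1 replicate 2 the difference was 0.72 (SE 0.09, limma adjusted p = 3.63e-05). For R1 against control, PRC1 was at -0.45 (SE 0.18, limma adjusted p = 0.0575), and it passed without R1 replicate 3 or 4 (limma adjusted p = 0.0300 and 0.0309) and with median-of-ratios scaling (0.0480). It also passed with a replicate block (limma adjusted p = 0.0469) and, at -0.22, by DESeq2 without R1 replicate 2 (adjusted p = 0.0402).

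KIF18A, a kinesin that damps chromosome movement at the metaphase plate, had values of 17.2, 8.600, 17.05 and 22.6 in R1 libraries, 38.8, 37.3, 39.4 and 38.9 in R2 libraries, and 31.5, 29.5, 28.4 and 31.5 in control libraries. R1 lay below control in every library, and R2 above it. KIF18A fell in R1 with -0.94 (SE 0.21, limma adjusted p = 0.00210) against control and -1.29 (SE 0.21, limma adjusted p = 0.000179) against R2, while R2 against control was 0.35 (SE 0.21, limma adjusted p = 0.226) with all libraries and 0.35 (SE 0.10, limma adjusted p = 0.0209) without R1 replicate 2. Without R1 replicate 2 KIF18A was at -0.67 in R1 against control and -1.02 against R2. It shares exon positions with METTL15. TACC3, which crosslinks kinetochore microtubules, had values of 103, 62.7, 116 and 98.5 in R1 libraries, 159.6, 149, 183 and 151 in R2 libraries, and 171, 164, 154 and 146 in control libraries. R1 was below R2 and control throughout, and R2 overlapped control. TACC3 fell in R1, with -0.77 (SE 0.16, limma adjusted p = 0.00118) against control and -0.78 (SE 0.16, limma adjusted p = 0.000961) against R2. Without R1 replicate 2 these changes were -0.58 and -0.60. NUSAP1, a microtubule-stabilising protein, had values of 108, 55.1, 99.8 and 119 in R1 libraries, 110.0, 102, 115 and 135 in R2 libraries, and 159, 147, 157 and 164 in control libraries. R1 and R2 libraries were all below control. NUSAP1 fell in R1 with -0.77 (SE 0.19, limma adjusted p = 0.00434), and R2 was at -0.45 (SE 0.19, limma adjusted p = 0.0908) with all libraries, where DESeq2 called it (adjusted p = 0.0488), and at -0.45 (SE 0.10, limma adjusted p = 0.00353) without R1 replicate 2. The R1 change was then -0.52.

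KIF23, the midzone kinesin of the centralspindlin complex, had values of 86.1, 40.7, 90.2 and 102 in R1 libraries, 56.3, 57.9, 58.2 and 63.6 in R2 libraries, and 99.3, 91.98, 75.8 and 83.5 in control libraries. R2 lay below control in every library and R1 libraries 1, 3 and 4 overlapped control. In R2 against control KIF23 was at -0.56 (SE 0.22, limma adjusted p = 0.0661) with all libraries, where DESeq2 called it (adjusted p = 0.0220), and it fell without R1 replicate 2, at -0.56 (SE 0.10, limma adjusted p = 0.000765). KIF20A, another midzone kinesin, had values of 89.2, 32.3, 77.3 and 83.97 in R1 libraries, 113, 104, 119.8 and 129.8 in R2 libraries, and 116, 95.4, 91.3 and 89.97 in control libraries. R1 was below control and R2 in every library. Its log2 fold change was -0.57 (SE 0.24, limma adjusted p = 0.0732) for R1 against control and -0.82 (SE 0.24, limma adjusted p = 0.0136) for R1 against R2, the first of which passed only without R1 replicate 1 (limma adjusted p = 0.0376) among the libraries left out. Without R1 replicate 2 KIF20A was at -0.23 against control and -0.48 against R2. It shares exon positions with BRD8 and CDC23. DLGAP5, a spindle assembly factor also called HURP, had values of 79.7, 33.2, 77.4 and 91.5 in R1 libraries, 88.6, 83.05, 99.8 and 99.8 in R2 libraries, and 68.3, 69.6, 67.6 and 66.3 in control libraries. R2 lay above control in every library, as did R1 libraries 1, 3 and 4. In R1 against control DLGAP5 was at -0.04 (SE 0.23, limma adjusted p = 0.894) with all libraries, and it rose without R1 replicate 2, at 0.28 (SE 0.10, limma adjusted p = 0.0303). It rose in R2 without R1 replicate 2, with 0.44 (SE 0.09, limma adjusted p = 0.00205), against 0.44 (SE 0.23, limma adjusted p = 0.167) with all libraries. Its R1 against R2 difference passed without R1 replicate 4 (limma adjusted p = 0.0396) and was at -0.49 (SE 0.23, limma adjusted p = 0.0974) with all libraries.

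The other 4 of this role were KIF11, KIF2C, TPX2 and ASPM. KIF11, the motor that pushes spindle poles apart, averaged 75.3 ± 28.3 in R1, 116 ± 3.28 in R2 and 84.3 ± 10.7 in control libraries (SD, n = 4 each), and fell in R1 against R2 by 0.71 on the log2 scale (SE 0.23, limma adjusted p = 0.0208). It rose in R2 against control without R1 replicate 2, at 0.46 (SE 0.12, limma adjusted p = 0.00883). In R1 against R2 KIF11 was then at -0.41. KIF2C, a microtubule depolymerase of centromeres, averaged 109 ± 39.6 in R1, 114 ± 13.1 in R2 and 98.7 ± 10.2 in control libraries (SD, n = 4 each) and rose in R1 without replicate 2, at 0.36 (SE 0.13, limma adjusted p = 0.0380). TPX2, which activates AURKA on the spindle, averaged 341 ± 99.7 in R1, 441 ± 64.2 in R2 and 373 ± 30.8 in control libraries (SD, n = 4 each). ASPM, a spindle pole protein, averaged 84.9 ± 39.9 in R1, 114 ± 4.84 in R2 and 85.6 ± 15.7 in control libraries (SD, n = 4 each). TPX2 and ASPM passed in no comparison by limma with or without R1 replicate 2, with log2 fold changes of -0.18 and -0.13 in R1 and 0.23 and 0.42 in R2.

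CENPA, the histone H3 variant that marks the centromere, had values of 23.5, 12.8, 23.7 and 25.9 in R1 libraries, 33.6, 32.4, 43.5 and 41.4 in R2 libraries, and 26.1, 21.2, 21.00 and 23.3 in control libraries. R2 lay above every R1 and control library, and R1 overlapped control. CENPA rose in R2 with 0.70 (SE 0.19, limma adjusted p = 0.0129) and was lower in R1 than in R2, with -0.83 (SE 0.19, limma adjusted p = 0.00251). Without R1 replicate 2 CENPA was at -0.61 in R1 against R2. It shares exon positions with SLC35F6. NUF2, of the NDC80 complex that grips microtubules, had values of 61.7, 24.5, 53.7 and 62.7 in R1 libraries, 39.6, 35.4, 42.7 and 46.4 in R2 libraries, and 45.1, 40.9, 40.9 and 43.3 in control libraries. R1 libraries 1, 3 and 4 stood above all R2 and control libraries. NUF2 did not pass in limma with all libraries, at 0.16 (SE 0.23, limma adjusted p = 0.593), and rose in R1 without replicate 2, at 0.47 (SE 0.11, limma adjusted p = 0.00311). It shares exon positions with RGS5, which is also among the pericyte markers. NDC80, its partner, averaged 35.99 ± 11.7 in R1, 34.5 ± 3.72 in R2 and 33.8 ± 2.84 in control libraries (SD, n = 4 each) and rose in R1 without replicate 2, at 0.31 (SE 0.11, limma adjusted p = 0.0365). CENPE, a kinetochore motor, averaged 65.9 ± 26.9 in R1, 92.6 ± 11.99 in R2 and 69.5 ± 15.7 in control libraries (SD, n = 4 each). CENPF, a kinetochore and nuclear matrix protein, averaged 218 ± 58.7 in R1, 258 ± 9.78 in R2 and 223 ± 28.1 in control libraries (SD, n = 4 each). CENPE and CENPF passed in neither limma fit.

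MKI67, which encodes the proliferation marker Ki-67, a coat of mitotic chromosomes, had values of 362, 212, 243 and 311 in R1 libraries, 566, 491, 669 and 666 in R2 libraries, and 466, 339.6, 313 and 279 in control libraries. R2 lay above every R1 and control library, and R1 overlapped control. MKI67 rose in R2 with 0.79 (SE 0.18, limma adjusted p = 0.00525), a ratio of means of 1.71, and was lower in R1 than in R2, with -1.10 (SE 0.18, limma adjusted p = 0.000262). In R1 against control it was at -0.31 (SE 0.18, limma adjusted p = 0.187) and did not pass with or without R1 replicate 2. In R1 against R2 MKI67 was at -0.975 without that library. TOP2A, the topoisomerase that untangles sister chromatids, had values of 469, 189.6, 332 and 479 in R1 libraries, 396, 387, 431 and 451 in R2 libraries, and 351, 289, 316 and 350.1 in control libraries. R2 was above control in every library, and R1 spread from below control to above R2. TOP2A did not pass in limma with all libraries, at 0.08 (SE 0.22, limma adjusted p = 0.783) in R1 and 0.35 (SE 0.22, limma adjusted p = 0.261) in R2, and rose in both without R1 replicate 2, at 0.37 (SE 0.13, limma adjusted p = 0.0342) and 0.35 (SE 0.12, limma adjusted p = 0.0405). The condensin subunit NCAPG averaged 61.1 ± 25.02 in R1, 97.3 ± 16.98 in R2 and 78.2 ± 10.2 in control libraries (SD, n = 4 each). It fell in R1 against R2 by 0.79 on the log2 scale (SE 0.29, limma adjusted p = 0.0361), a call lost without R2 replicate 3 or 4 (limma adjusted p = 0.0742 and 0.0967), with edgeR (0.0532) and in a fit of R1 and R2 alone (0.0716), and it shares exon positions with LCORL. Without R1 replicate 2 this difference was -0.39. NCAPH, another condensin subunit, averaged 63.7 ± 16.7 in R1, 81.05 ± 3.73 in R2 and 81.5 ± 5.95 in control libraries (SD, n = 4 each) and passed in neither limma fit.

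ANLN, anillin, a scaffold of the contractile ring, had values of 359, 195, 269.7 and 382 in R1 libraries, 584, 655, 576 and 626 in R2 libraries, and 461, 430.2, 387 and 440.3 in control libraries. The groups formed 3 bands with no overlap, R2 highest, control between and R1 lowest. ANLN fell in R1 with -0.56 (SE 0.17, limma adjusted p = 0.0161) and rose in R2 with 0.51 (SE 0.17, limma adjusted p = 0.0378), and R1 against R2 was -1.06 (SE 0.17, limma adjusted p = 0.000179). The R2 call was lost without any 1 of the 4 R2 or 4 control libraries (limma adjusted p = 0.0514 to 0.0997) and held without any 1 of the R1 libraries, and at 0.51 (SE 0.11, limma adjusted p = 0.00379) without R1 replicate 2. Without R1 replicate 2 ANLN was at -0.36 in R1 against control and -0.87 against R2. It shares exon positions with KIAA0895. BIRC5, which encodes survivin of the chromosomal passenger complex, averaged 119.7 ± 50.6 in R1, 97.5 ± 18.8 in R2 and 89.5 ± 11.9 in control libraries (SD, n = 4 each) and rose in R1 without replicate 2, at 0.66 (SE 0.17, limma adjusted p = 0.00522) against control and 0.55 (SE 0.17, limma adjusted p = 0.0140) against R2. ECT2, which activates RhoA at the cleavage furrow, averaged 95.4 ± 29.2 in R1, 109.8 ± 13.9 in R2 and 103 ± 7.61 in control libraries (SD, n = 4 each) and passed in neither limma fit.

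None of the 3 members tied to the anaphase-promoting complex passed in limma with all 12 libraries. CDC20, which activates the complex, averaged 313 ± 117 in R1, 353 ± 39.7 in R2 and 329.9 ± 29.1 in control libraries (SD, n = 4 each). PTTG1, securin, which holds separase inactive, averaged 162 ± 51.3 in R1, 199 ± 27.9 in R2 and 197 ± 9.25 in control libraries (SD, n = 4 each). UBE2C, the ubiquitin-conjugating enzyme of the complex, averaged 137 ± 57.2 in R1, 115 ± 8.25 in R2 and 138 ± 11.9 in control libraries (SD, n = 4 each) and was higher in R1 than in R2 without R1 replicate 2, at 0.48 (SE 0.13, limma adjusted p = 0.00839). In a fit of the R2 and control libraries alone UBE2C was lower in R2 (limma adjusted p = 0.0396). PTTG1 and UBE2C have near-identical copies in the genome, so their values are uncertain.

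Several of the members that fell lay among genes that were also lower. Positions were taken from GENCODE v29 (GRCh38), and each member was set beside the median log2 fold change of the measured genes that start within 5 Mb of its own start, other members left out. Chromosome 15 carries 5 members, BUB1B (start at 40161023), NUSAP1 (41332694), CCNB2 (59105078), KIF23 (69414246) and PRC1, a minus-strand gene whose lower coordinate is 90966038. In R2 against control their log2 fold changes were -0.49, -0.45, -0.92, -0.56 and -0.92, and the medians of their neighbours were -0.76, -0.79, -0.77, -0.78 and -0.86. Of these 5, 3 fell with all libraries and 5 without R1 replicate 2, and of the other 367 genes of chromosome 15, 287 fell and 10 rose in R2, with a median of -0.76. The 36 members on other chromosomes counted 4 risen and 2 fallen in R2, AURKB and FOXM1. AURKB, on chromosome 17 from 8204733 to 8210600, lay among 102 genes with a median of -0.91 in R2, of which 93 fell, and of -0.82 in R1, of which 75 fell. FOXM1, on chromosome 12 from 2857681 to 2877155, lay among 62 genes with a median of -0.46 in R2 and -0.41 in R1, against its own -0.83 in R2 and -1.33 in R1. The 5 members that fell in R2 with all libraries had neighbour medians below 0, and 3 of them lie on chromosome 15. Over all 41 members the neighbour medians in R2 ranged from -0.91 to 0.25, with a median of 0.06.

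In R1 against control, TACC3 at -0.77 and WEE1 at -0.91 lay among genes with medians of -0.76 and -0.66, on chromosomes 4 and 11. NCAPG, also on chromosome 4, had the lowest neighbour median of all members, at -1.01, and its own change was -0.48 with all libraries and -0.08 without R1 replicate 2. ANLN at -0.56 lay among genes with a median of -0.35 on chromosome 7. PLK1 at -1.13 on chromosome 16, KIF18A at -0.94 on chromosome 11, NUSAP1 at -0.77 on chromosome 15 and CCNA2 at -0.77 on chromosome 4 had neighbour medians of -0.25, -0.20, -0.22 and -0.17. CDC25B at -0.47 on chromosome 20 lay among genes with a median of 0.17. The risen members of R2 stood above their neighbours, HMMR at 1.37 with a neighbour median of 0.20, MKI67 at 0.79 with 0.08, CENPA at 0.70 with 0.09 and ANLN at 0.51 with 0.17. The part of the nearby genes' shift in the members' changes was not tested.

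**Figure D4:**
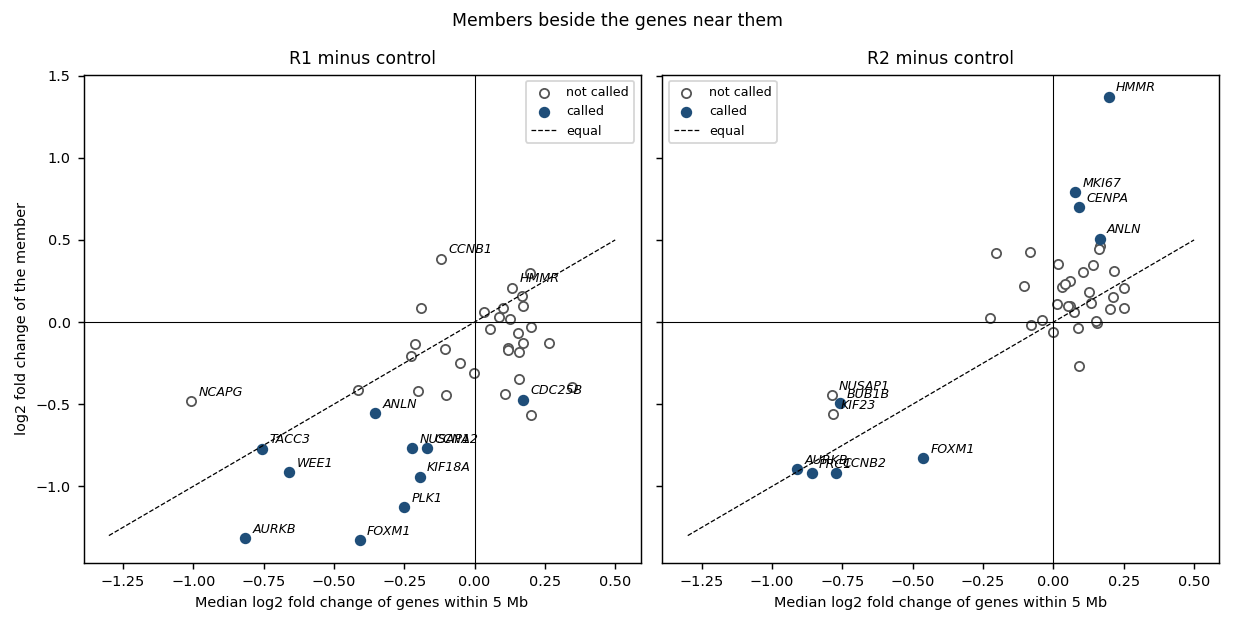
The log2 fold change of each member (y) is plotted against the median of the measured genes within 5 Mb of it (x) for R1 and for R2 against control, filled where the member passed an adjusted p of 0.05. In R2 the 5 members of chromosome 15 and AURKB lie at neighbour medians of -0.76 to -0.91, and HMMR, MKI67 and CENPA lie far above the dashed line of equality.

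Other cell cycle genes, in lists that do not contain the 41, were read in the same fits. Of 34 spindle checkpoint and kinetochore genes, 3 rose and 5 fell in R1 against control, and 9 rose and 5 fell without R1 replicate 2. Over all rows 22.4% rose and 21.4% fell in R1 against control, 23.4% and 22.1% without R1 replicate 2, and 13.6% and 14.8% in R2 against control, and the counts of this and the other lists are read against these shares. CENPW, a centromere protein, averaged 29.6 ± 9.53 in R1 and 13.9 ± 1.596 in control libraries (SD, n = 4 each) and rose by 1.02 on the log2 scale (limma adjusted p = 0.000671). MIS12, which links centromere and kinetochore, fell to 18.4 ± 2.45 in R1 and 13.6 ± 1.26 in R2, against 27.9 ± 2.82 in control libraries (SD, n = 4 each), with log2 fold changes of -0.59 and -1.01 (limma adjusted p = 0.00181 and 4.29e-05). In R2 against control 1 of the 34 rose, CENPI, with a log2 fold change of 0.75 (limma adjusted p = 0.00171), and 2 fell. Of 19 condensin and cohesin genes, 5 fell in R1, 1 rose and 4 fell without R1 replicate 2, and 2 rose in R2. Those that rose in R2 were SMC4, the condensin ATPase, by 0.63 and SGOL2, a protector of centromeric cohesion, by 0.58 (limma adjusted p = 0.0391 and 0.0447). Of 26 other spindle, centrosome and cytokinesis genes, 1 rose and 6 fell in R1, 7 rose and 3 fell without R1 replicate 2, and 3 rose in R2. KIFC1, a minus-end kinesin, averaged 171 ± 17.6 in R2 and 113 ± 7.41 in control libraries (SD, n = 4 each) and rose by 0.59 (limma adjusted p = 0.0204). PLK4, the kinase of centriole duplication, averaged 31.3 ± 8.21 in R1 and 47.9 ± 2.97 in control libraries (SD, n = 4 each) and fell by 0.64 (limma adjusted p = 0.00542).

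Of the 15 genes of the B-MYB, MuvB, DREAM and NF-Y list, which act on the promoters described above, 1 rose and 3 fell in R1 and 2 rose and 2 fell in R2 against control. MYBL2, which encodes B-MYB, averaged 105 ± 30.6 in R1 and 203 ± 50.6 in R2 libraries (SD, n = 4 each), a log2 fold change of -0.97 (limma adjusted p = 0.00271). E2F4, the E2F of the DREAM complex, averaged 229 ± 25.1 in R1, 259 ± 24.2 in R2 and 338 ± 32.2 in control libraries (SD, n = 4 each) and fell in both, by 0.56 and 0.38 (limma adjusted p = 0.000974 and 0.0180). NFYA, a subunit of NF-Y, rose in R2 by 0.57 (limma adjusted p = 0.0123). Of 17 anaphase-promoting complex genes, 4 rose and 1 fell in R1, against 22.4% and 21.4% of all rows, with 8 risen and 1 fallen without R1 replicate 2, against 23.4% and 22.1%, and 1 rose in R2. ANAPC11, its RING subunit, averaged 61.4 ± 7.12 in R1 and 19.7 ± 1.98 in control libraries (SD, n = 4 each), a rise of 1.61 on the log2 scale (limma adjusted p = 1.76e-06).

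Of 14 genes of the G2 checkpoint and cell cycle arrest, 3 rose in R1. CDKN1A, which encodes the CDK inhibitor p21, averaged 61.0 ± 14.6 in R1, 9.24 ± 5.52 in R2 and 13.4 ± 3.59 in control libraries (SD, n = 4 each). It rose in R1 with a log2 fold change of 2.15 against control and 2.83 against R2 (limma adjusted p = 0.000288 and 2.81e-05). Of 36 genes of G1/S and DNA replication, 3 rose and 8 fell in R1, against 22.4% and 21.4% of all rows, with 9 risen and 6 fallen without R1 replicate 2, and 2 rose and 1 fell in R2. CHAF1B, a subunit of the chromatin assembly factor of replication, averaged 19.7 ± 5.78 in R1 and 46.9 ± 6.72 in control libraries (SD, n = 4 each) and fell by 1.27 (limma adjusted p = 0.000299). MCM5, of the replicative helicase, averaged 136 ± 34.9 in R1 and 242 ± 44.4 in control libraries (SD, n = 4 each) and fell by 0.85 (limma adjusted p = 0.00338). CCND1, cyclin D1, the partner of CDK4/6, averaged 545 ± 111 in R1, 383 ± 48.7 in R2 and 269 ± 57.8 in control libraries (SD, n = 4 each) and rose in both, by 1.02 and 0.53 (limma adjusted p = 0.000402 and 0.0400). CCNE1, cyclin E1, averaged 14.6 ± 2.34 in R1, 24.1 ± 1.69 in R2 and 10.8 ± 1.15 in control libraries (SD, n = 4 each) and rose in both, by 0.41 and 1.13 (limma adjusted p = 0.0208 and 2.31e-05). R1 replicate 2 was low in several of these lists too, at a median log2 level minus the control mean of -0.71 in the G1/S list, -0.68 in the checkpoint and kinetochore list, -0.80 in the other spindle list and -0.57 in the condensin and cohesin list. It stood at -0.33 in the B-MYB, MuvB, DREAM and NF-Y list and -0.17 in the anaphase-promoting complex list. In the G2 checkpoint and arrest list it stood above the control mean, at 0.11.

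**Figure D5:**
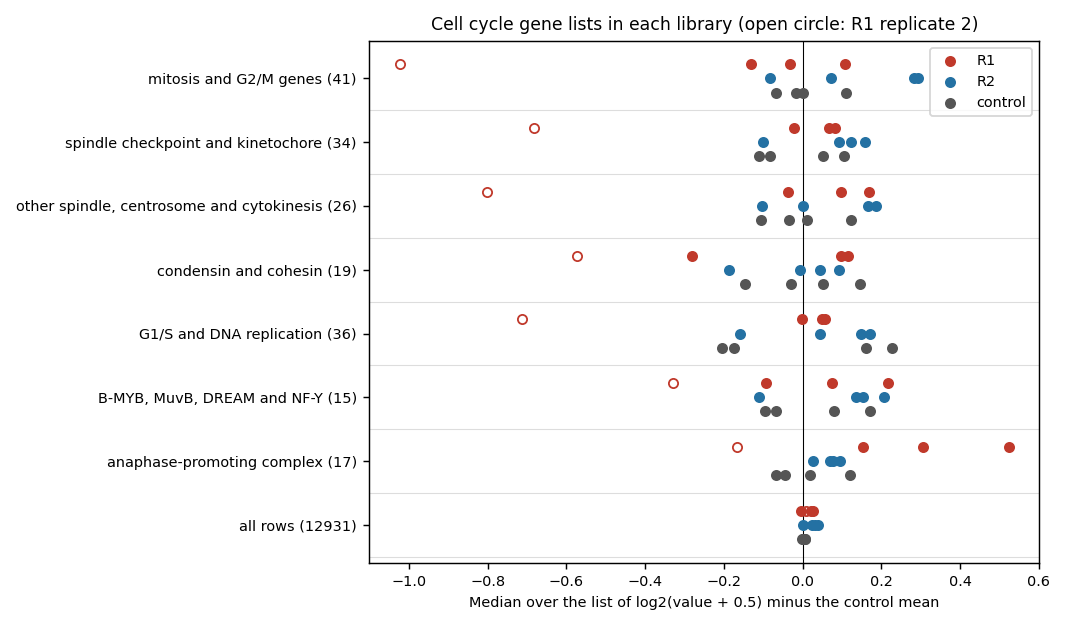
Each circle is the median over a gene list (rows, with its number of genes) of log2(value + 0.5) minus the control mean in a library of R1, R2 or control, with R1 replicate 2 open. R1 replicate 2 lies at -1.02 for the 41 mitosis and G2/M genes and at -0.68 to -0.80 for the spindle checkpoint, other spindle and G1/S lists, while for all 12931 rows the libraries lie near 0. The G2 checkpoint and arrest list, where this library stood at 0.11, is not drawn.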

How the data were processed

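RNA of 12 libraries, made with a TruSeq kit per the labels' protocols, was processed with STAR, GRCh38 and edgeR, which the submitters' processing notes name without versions (per the submitters' processing notes). Each deposited file holds 12931 rows with a gene symbol and a normalised signal. Log2 fold changes from these signals differed by at most 0.0021 from those with TMM scaling of the recovered reads. In every library 100% of these signal values were whole multiples of the value of 1 read within 0.001 reads, so that whole reads were recovered from the steps, 20003891 to 39009384 per library. The lengths of genes are not in the values, and the part of reads outside the listed rows was not analysed here.

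Values were compared as log2(value + 0.5) with limma 3.58.1 (R 4.3.3, variances moderated across genes with a trend over the mean), in 1 fit of all 12 libraries with 3 group means. P-values were two-sided and Benjamini-Hochberg adjusted over 12931 rows, and "rose", "fell" and "called" mean an adjusted p under 0.05. The added 0.5 makes fold changes of low values smaller than the ratio of means. The contrasts were R1 minus control, R2 minus control and R1 minus R2, each also fitted without R1 replicate 2. As alternatives on the recovered counts, edgeR 4.0.16 (quasi-likelihood) called 5645, 3564 and 5988 rows and DESeq2 1.42.0 called 5869, 3948 and 6206 rows in these contrasts, against 5667, 3667 and 6053 by limma. The fit was run on simulated data with known changes. Its libraries were drawn independently, with none shifted as R1 replicate 2 is, so it does not test the calls that depend on that library. Replicates are separate libraries by their labels, and grouping followed the labels alone.

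The members and the gene lists were chosen with earlier results of these data known. Values in every library are given for members called in at least 1 of the 6 fits (32), up to 20 by smallest adjusted p, and for CCNB1, CDK1, PLK1, AURKA, AURKB, FOXM1, MKI67, TOP2A, WEE1 and BUB1B, which makes 23, and the other 18 are given by means. Other list genes were named from the up to 2 called with the smallest adjusted p in each direction and comparison. Gene positions and exon overlaps come from GENCODE v29, with a position for 91.5% of the rows, and promoters from RefSeq (GRCh38.p14).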

Additional observations from a re-analysis of the deposited data

Results flagged for a closer look

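Of 126 groups of 4 libraries examined (each of the 41 members and their median in R1, R2 and control), 5 (3.97%) held a library whose gap to its nearest neighbour took an unusually large part of the range of the group, and chance alone marks about 1 in 20 groups. NDC80 in R1 had its lowest value in replicate 2, with a gap of 0.882 of the range. In R2, replicate 2 was far from the others for CDC25B, where it was highest (0.881), and for FOXM1, where it was lowest (0.87). In control libraries, replicate 1 was highest for CENPF (0.905) and replicate 2 was lowest for PTTG1 (0.843).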

How the results depend on the processing

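Of 2496 values for the 32 members called at least once, under 26 alternatives, 2302 kept their direction and side of the threshold, 53 lost the call, 136 gained one and 5 reversed. TMM scaling is counted among these alternatives with and without R1 replicate 2. It differed from the deposited values by at most 0.0021 in log2 fold change, so the values it kept were fixed in advance. Outside the alternatives without R1 replicate 2, 1939 were kept, 53 lost the call, 24 gained one and 0 reversed. Without R1 replicate 2, R1 against control had 10 risen members, R2 against control 9 and R1 against R2 8. Leaving out each library in turn, members risen ranged from 0 to 10 in R1 against control, from 3 to 9 in R2 against control and from 0 to 8 in R1 against R2, and members fallen in R2 against control from 3 to 7. In a fit of only the 2 groups compared, 11 rose and 8 fell in R2 against control and 0 rose in R1 against R2, where edgeR and DESeq2 called 2, PRC1 and CCNB2. In R1 against R2 edgeR called 12 members fallen, without NCAPG and TTK, and in R2 against control DESeq2 called 7 fallen, with KIF23 and NUSAP1. The cause of these differences was not tested.

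These 4 combinations were added after seeing the data. Without R1 replicate 2, edgeR, DESeq2 and TMM scaling each called 10 members risen in R1 against control and 9 in R2 against control, and 8, 9 and 8 in R1 against R2. TMM scaling nearly repeats the deposited values, so its counts are not a separate check. DLGAP5 in R1 against control reversed to a log2 fold change of 0.281 without R1 replicate 2 (leaving out single libraries, -0.202 to 0.281), and was 0.256 with edgeR, 0.266 with DESeq2 and 0.281 with TMM scaling without that library. NDC80 in R1 against R2 reversed to 0.275 with DESeq2 without that library.

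The labels do not say whether replicate numbers pair the libraries, and the values here cannot exclude a pairing. Same-numbered libraries had deviations correlated at -0.31 to 0.387, and 3 of 12 correlated best with their own number. With a replicate block, 12 members fell in R1 against control, 4 rose and 6 fell in R2 against control, and 1 rose and 14 fell in R1 against R2. With the block and without R1 replicate 2, 6 rose in R1 against control, 9 in R2 against control and 7 in R1 against R2.

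Scaling moved the median of all rows by less than 0.1. At 3 reads a library's value is 0.0728 to 0.158, and every member lay above it in every library.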
